A study of Homo sapiens with 6 samples.

Results

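Small nucleolar RNA (snoRNA) genes with measurable signal were described in a human cell line derived from neuroblastoma, SH-SY5Y. A gene was taken when its deposited type was snoRNA and its level reached at least 1 FPKM (fragments per kilobase of gene and per 1000000 assigned fragments) in at least 3 of the 6 libraries. Of 943 genes of that type, among 60612 genes in all, 90 met the rule. Another 266 were above 0 in some library but outside it, and 587 were listed at 0 in every library. The 90 were chosen by their level over both groups, so their level is a description and carries no test. Of them, 38 reached 1 FPKM in all 6 libraries, 18 in exactly 3, and 0 in the 3 libraries of 1 group with none of the other group.

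The 3 libraries labelled CDKN2B-AS1 overexpression came from SH-SY5Y cells given a vector for this long noncoding RNA, an antisense transcript at the tumour suppressor gene CDKN2B. The 3 control vector libraries came from the same line infected with a control vector. Columns of the labelled overexpression libraries are tagged LVx2 and those of the control vector libraries LVx1, with no explanation in the labels, so whatever the tags mark and the group labels cannot be told apart. Whether the libraries of a group are separate cultures is nowhere stated, and the p-values therefore describe a spread between libraries that may be technical. CDKN2B-AS1 stood at 0.338, 0.304 and 0.353 FPKM in labelled overexpression replicates 1, 2 and 3, against 0.272, 0.288 and 0.191 FPKM in control vector replicates 1, 2 and 3 (exact two-sided permutation p = 0.1, the smallest that 3 against 3 allow). The groups are therefore called by their labels. Control vector replicate 3 stood apart from the other libraries on the second principal component of the tested genes, at -40.6 against -4.86 to 17.8, and values without it are given beside several results below.

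Most snoRNAs are cut from introns of host genes and guide chemical modification of other RNAs by base pairing. Box C/D snoRNAs, named SNORD, carry a C box near the 5′ end and a D box near the 3′ end and guide 2′-O-methylation with fibrillarin, NOP56, NOP58 and SNU13. Box H/ACA snoRNAs, named SNORA, end in an ACA triplet close to the 3′ end and guide pseudouridylation with dyskerin, NOP10, NHP2 and GAR1. Most targets are ribosomal RNA, and a few snoRNAs, such as U3, U8 (SNORD118), U14 (the SNORD14 genes) and U17 (SNORA73A and SNORA73B), act in cleavage or folding of the ribosomal RNA precursor. By name, 50 of the 90 were box C/D (the SNORD genes and 1 gene called U3), 36 were box H/ACA and 4 were neither (SCARNA12, a Cajal body RNA, and 3 genes listed only by an ID). That is 13.8% of 363 named box C/D, 16.8% of 214 named box H/ACA and 1.09% of 366 other genes of the type.

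The sequences of 8 members on which the results turn are printed 5′ to 3′ as RNA-strand DNA from the GENCODE v29 transcripts (GRCh38). All but that of SNORD3A span the position in the deposited table. For SNORD3A the 217 bases of the U3 RNA are printed, while the deposited table lists 699 bases from the same start. Capitals mark TGATG (the core of the C box) in the first 25 bases and CTGA (the D box) in the last 20 bases of box C/D genes, and ACA in the last 8 bases of box H/ACA genes, each searched on the RNA's own strand. SNORD49B and SNORD49A are shown because both lie in the same host and share a stretch of 35 identical bases while their levels differed. SNORD86 was among the highest members, SNORD3A is U3, and SNORD73A, SNORA58B, SNORA12 and SNORA73B are members whose groups did not overlap.
SNORD49B (chr17:16439505-16439576, plus strand): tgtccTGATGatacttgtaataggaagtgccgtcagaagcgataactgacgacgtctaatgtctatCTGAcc
SNORD49A (chr17:16440036-16440106, plus strand): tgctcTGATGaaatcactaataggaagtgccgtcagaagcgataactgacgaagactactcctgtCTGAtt
SNORD86 (chr20:2656097-2656182, plus strand): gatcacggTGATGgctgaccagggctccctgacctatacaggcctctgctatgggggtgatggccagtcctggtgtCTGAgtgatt
SNORD73A (chr4:151103827-151103891, plus strand): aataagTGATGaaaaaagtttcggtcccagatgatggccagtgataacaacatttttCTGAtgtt
SNORD3A (U3 RNA, chr17:19188016-19188232, plus strand): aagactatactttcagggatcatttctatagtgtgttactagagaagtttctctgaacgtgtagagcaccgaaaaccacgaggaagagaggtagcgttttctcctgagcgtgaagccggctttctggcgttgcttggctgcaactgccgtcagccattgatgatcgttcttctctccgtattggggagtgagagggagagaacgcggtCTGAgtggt
SNORA58B (chr1:154259727-154259862, plus strand): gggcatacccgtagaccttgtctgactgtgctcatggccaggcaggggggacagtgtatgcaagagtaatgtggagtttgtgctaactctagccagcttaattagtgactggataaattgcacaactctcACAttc
SNORA12 (chr10:100237156-100237302, minus strand): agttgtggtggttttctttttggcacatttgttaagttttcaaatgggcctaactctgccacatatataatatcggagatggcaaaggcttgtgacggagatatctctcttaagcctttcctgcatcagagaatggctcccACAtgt
SNORA73B (chr1:28508559-28508762, plus strand): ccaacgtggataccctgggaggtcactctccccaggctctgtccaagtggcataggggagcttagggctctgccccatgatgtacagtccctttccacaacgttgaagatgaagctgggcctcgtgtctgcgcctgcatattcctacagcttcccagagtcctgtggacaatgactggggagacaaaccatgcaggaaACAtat
Both box C/D motifs stood in these windows in 42 of the 50 box C/D members (84.0%). This compares with 82.0% of 278 genes named SNORD in GENCODE v29 and 0.235% of 205484 other transcripts of at least 60 bases. Unlike the 50 members, the 278 hold no gene called U3. The ACA triplet stood in its window in 35 of the 36 box H/ACA members (97.2%), beside 91.2% of 147 named box H/ACA genes and 11.0% of the other transcripts. TGATG stood in its window in 0 of the 36 box H/ACA members. The classes are defined by these boxes, so the match of letters and names describes the sequences and tests nothing. SNORD3A had no TGATG in its window, so only its D box is marked.

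The members are short and were read with few fragments. Their listed lengths ran from 65 to 791 bases, with a median of 78.5 bases in box C/D and 133 bases in box H/ACA members. The numbers of assigned fragments recovered from the table were 27525077, 20466583 and 48996425 in labelled overexpression replicates 1, 2 and 3, and 45102020, 29048596 and 43413832 in control vector replicates 1, 2 and 3. At a length of 70 bases, 1 fragment was worth 0.292 to 0.698 FPKM in the labelled overexpression libraries and 0.317 to 0.492 FPKM in the control vector libraries. A count of 0 allows up to 3 fragments, or 0.875 to 2.09 FPKM in the labelled overexpression and 0.950 to 1.48 FPKM in the control vector libraries at that length, by counting error only. Of the 90 members, 26 were at 0 in at least 1 library. The mean number of fragments per library reached 10 in 45 members and stayed under 5 in 23.

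What molecule these fragments came from cannot be told apart. Per the labels, total RNA was made into cDNA with a SMART-seq kit, a chemistry that primes on poly(A) tails, and was read as paired ends longer than most box C/D genes. In the deposited gene models 59 of the 90 members lay wholly within an exon listed for a gene on the same strand, 7 lay partly in one, 17 lay in introns and 7 had no host. In GENCODE v29 a single exon covered 56 of them whole, of a transcript classed as retained intron in 39 and of a protein-coding transcript in 7. A fragment of such a transcript and a fragment of the free snoRNA fall on the same bases. The recovered fragment numbers hold fractions, and no source used here says how fragments on overlapping genes were divided or whether strand was used. A gene lies on the opposite strand of 8 members, among them SNORD73A (SH3D19), SNORA57 (LBHD1), SNORA7A (CAND2) and SNORD58B (MIR1539).

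SNORD49B, SNORD86 and SNORD58B had the highest levels in FPKM, which divides by the listed length. By mean fragments per library SNORD3A, listed at 699 bases, was the highest member, at 135.45, against 113.05 for SNORD86 and 101.4 for SNORD49B. SNORD49B, a methylation guide for 28S ribosomal RNA within the noncoding host SNHG29, stood at 33.3, 32.9 and 42.7 FPKM in labelled overexpression replicates 1, 2 and 3, against 39.8, 46.4 and 37.4 FPKM in control vector replicates 1, 2 and 3. SNORD86, which lies in NOP56 and is known to act on the splicing of that gene's transcript, stood at 35.5, 25.8 and 38.1 FPKM in the labelled overexpression, against 41.3, 27.8 and 42.6 FPKM in the control vector libraries. SNORD58B, within the ribosomal protein gene RPL17, stood at 24.2, 31.2 and 32.3 FPKM in the labelled overexpression, against 44.2, 27.5 and 36.5 FPKM in the control vector libraries. The groups overlapped for all 3 genes, with log2 fold changes of -0.18, -0.16 and -0.28. Next came SNORA10, SNORD55, SNORD16, SNORA70, SNORA7A, SNORA58B, SNORD36A, SNORD118 and SNORA18, with means over all 6 libraries of 11.8 FPKM for SNORA10 down to 6.18 FPKM for SNORA18. Among these 12 genes the groups were apart for SNORA58B alone. Below them 78 members had means of at most 6.12 FPKM, and the median of all 90 was 2.18 FPKM.

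**Figure D1:**
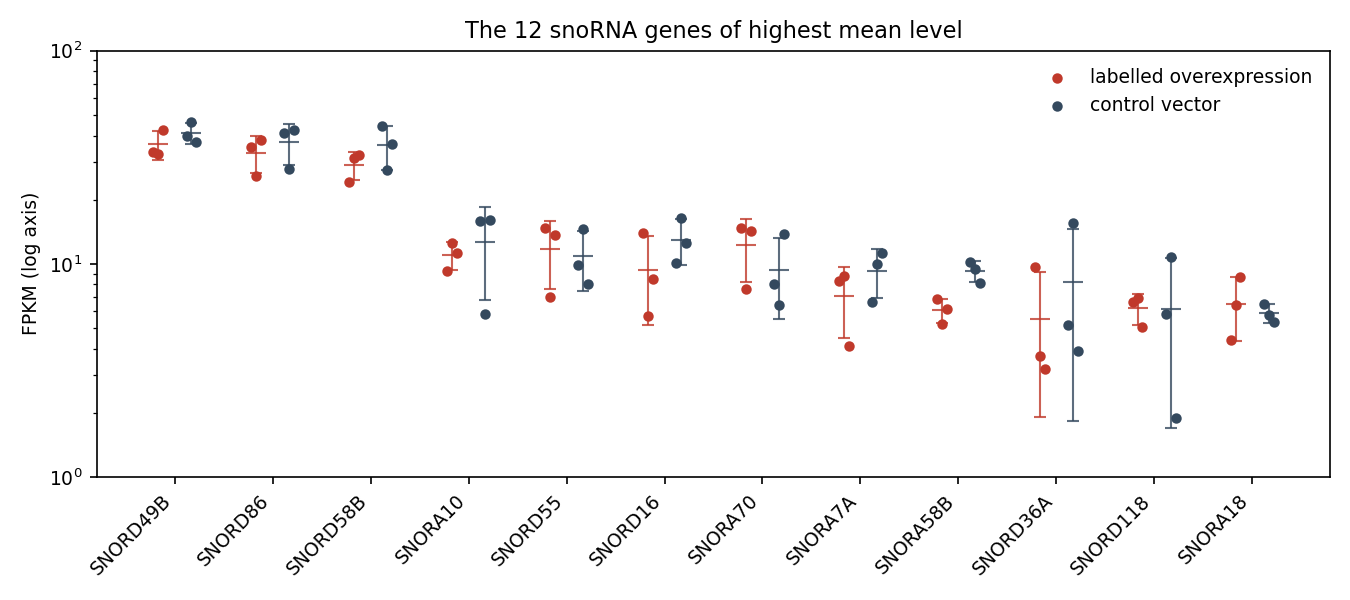
Level in FPKM (log axis) of the 12 snoRNA genes of highest mean level, with points for single libraries and bars for mean ± SD (n = 3 each), labelled overexpression in red left of control vector in dark blue. SNORD49B, SNORD86 and SNORD58B sit between 24.2 and 46.4 FPKM, above the others, and only for SNORA58B do the colours separate.

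At the lower edge of the rule, SNORA73A, SNORA51 and SNORD38A entered with third-highest values of 1.00, 1.04 and 1.04 FPKM. Just outside were a U3 copy on chromosome 7 at 0.946 FPKM, SNORA25 at 0.945 FPKM and SNORD13 at 0.940 FPKM. These 6 values lie closer together than the 0.292 FPKM or more that 1 fragment is worth at 70 bases. For longer genes, such as SNORA73A and SNORA51, 1 fragment is worth less.

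SnoRNA genes within 1 host stood at very different levels. Within SNHG29, SNORD49B averaged 36.3 ± 5.52 FPKM in labelled overexpression and 41.2 ± 4.68 FPKM in control vector libraries, while SNORD49A, with the shared stretch printed above, averaged 3.61 ± 1.43 FPKM in labelled overexpression and 2.46 ± 0.964 FPKM in control vector libraries (SD, n = 3 each). SNORD65, the third snoRNA of that host, averaged 2.15 ± 0.293 FPKM in labelled overexpression and 2.08 ± 1.67 FPKM in control vector libraries (SD, n = 3 each). Within NOP56, the means over all 6 libraries were 35.2 FPKM for SNORD86, 4.22 FPKM for SNORD110, 1.44 FPKM for SNORD57 and 0.802 FPKM for SNORA51. In all 6 libraries SNORD49B lay above SNORD49A and SNORD65, and SNORD86 lay above the other NOP56 members. These are levels per length, and all of these genes lay wholly within a listed exon except SNORA51, with 102 of its 132 bases in one.

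**Figure D2:**
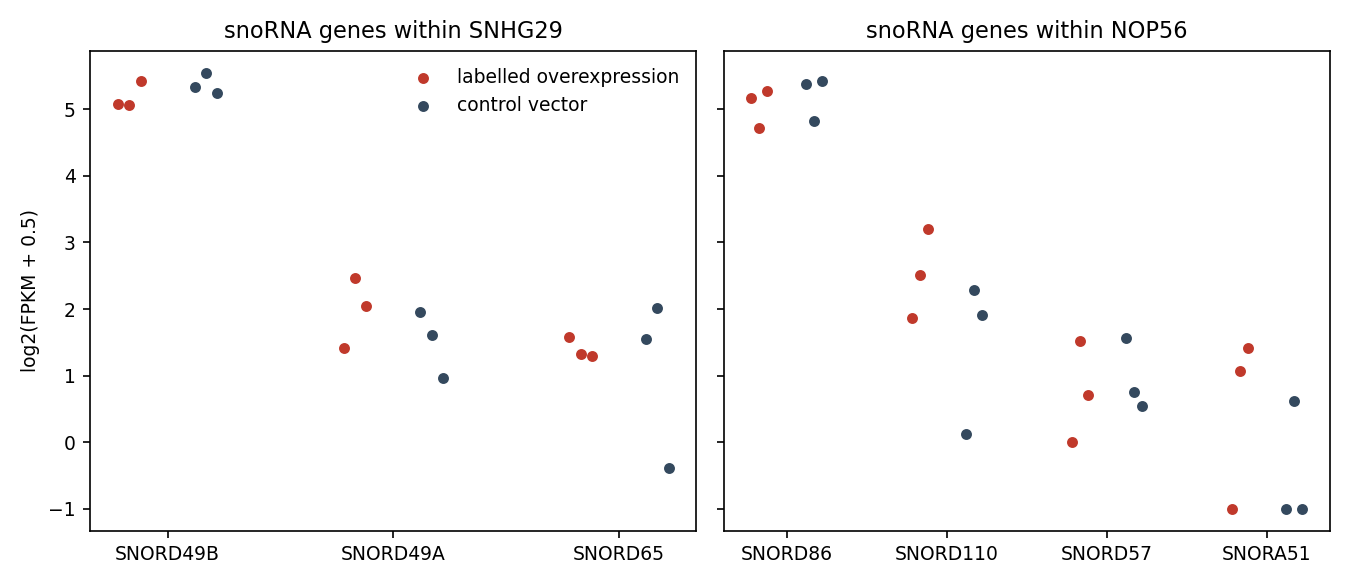
Level as log2(FPKM + 0.5) of the snoRNA genes within SNHG29 (left) and NOP56 (right), 1 point per library, labelled overexpression in red left of control vector in dark blue. SNORD49B and SNORD86 stand above the other genes of the same host in every library.

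Of the 90 members 83 lay in 58 host genes, 16 of which held at least 2 members and 41 members in all. A host is here the same-strand gene of highest mean level whose span holds the snoRNA. Among these 16, NOP56 held 4 members, and HSPA8, RPL7A, SNHG25, SNHG29 and TAF1D held 3 each. EIF4A2, RCC1, RPL23A, RPL27A, RPL4, RPS13, RPS2, SENP3-EIF4A1 and SNHG12 held 2 each. The mean level of a member as a percentage of its host's mean level ran from 0.178% for SNORD14E in HSPA8 to 396% for SNORA61 in SNHG12. Its median was 0.814% for the 29 members in ribosomal protein genes, 34.3% for the 18 in lncRNA genes and 5.42% for the 36 in other genes. Most members in highly expressed ribosomal protein genes thus stood far below them, with SNORD58B at 14.7% of RPL17-C18orf32 as the highest.

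The comparison between the groups addressed which snoRNA genes differ between the libraries labelled overexpression and the control vector libraries. Each of 13984 genes at 1 FPKM or more in at least 3 libraries was tested with limma-trend on log2(FPKM + 0.5), which understates the changes of low genes, with Benjamini-Hochberg adjustment over all of them. None of the 90 snoRNA genes passed an adjusted p of 0.05, against 159 of all tested genes (1.14%), and the lowest adjusted p among them was 0.0627 in limma-trend with Benjamini-Hochberg adjustment. At an unadjusted limma-trend p under 0.05 there were 20 of 90 (22.2%), against 17.7% of all tested genes. Of these, 15 were lower in the labelled overexpression (16.7% of the members, against 7.34% of all tested genes) and 5 were higher (5.56%, against 10.4%). On recovered fragments limma-voom also called 0 members, with 11 at an unadjusted p under 0.05 (12.2%, against 17.5% of all tested genes), so the members' share was above that of all tested genes in limma-trend and below it in limma-voom. The median log2 fold change was -0.19 over the members and 0.05 over all tested genes, and 54 of 90 members were below 0, against 43.2% of all tested genes. The SE of a member's log2 fold change ran from 0.14 to 0.87 with a median of 0.42, which is above the median of 0.20 over all tested genes. In bulk RNA fewer cells that make an RNA and less of it per cell cannot be told apart.

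All fragments on the members together made up a smaller part of the labelled overexpression libraries. They came to 39.7, 44.0 and 41.8 fragments per 1000000 in labelled overexpression replicates 1, 2 and 3. In control vector replicates 1, 2 and 3 they came to 50.2, 54.1 and 58.0, so the groups did not overlap. Much of this gap lay in the 4 near-identical U3 genes described next. Those held 6.80, 9.23 and 5.89 fragments per 1000000 in the labelled overexpression and 12.2, 16.3 and 15.7 in the control vector libraries. The FPKM of the 50 box C/D members summed to 225, 222 and 239.5 in the labelled overexpression and to 257, 274 and 280 in the control vector libraries. Without the 4 U3 genes described next, these sums were 215.5, 208.7 and 231 FPKM in the labelled overexpression and 239.5, 251 and 258 FPKM in the control vector libraries. The FPKM of the 36 box H/ACA members summed to 94.8, 106 and 104 in the labelled overexpression and to 113, 107 and 138 in the control vector libraries. All 3 labelled overexpression sums were below all 3 control vector sums in both classes and came close in box H/ACA. FPKM summed over all genes also ran lower in the labelled overexpression, at 349703 to 365333, against 381310 to 400215 in the control vector libraries. After scaling to a common FPKM total the median log2 fold change was -0.09 over the members and 0.15 over all tested genes.

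The lowest adjusted p among the members belonged to SNORD3B-2, a gene of U3. SNORD73A, described below and no U3 gene, had a lower adjusted p than SNORD3A, SNORD3B-1 and SNORD3C. U3 is an abundant nucleolar RNA, which pairs with the ribosomal RNA precursor and is needed for its first cleavages. SNORD3A stood at 3.36, 5.56 and 2.95 FPKM in labelled overexpression replicates 1, 2 and 3, against 6.63, 7.16 and 7.02 FPKM in control vector replicates 1, 2 and 3. SNORD3B-1 stood at 2.40, 2.62 and 1.85 FPKM in the labelled overexpression, against 3.66, 6.17 and 5.75 FPKM in the control vector libraries. SNORD3B-2 stood at 1.70, 1.74 and 1.45 FPKM in the labelled overexpression, against 2.85, 4.43 and 4.56 FPKM in the control vector libraries. For these genes all 3 labelled overexpression libraries were below all 3 control vector libraries. SNORD3C, at 2.21, 3.41 and 2.19 FPKM in the labelled overexpression and 4.34, 5.34 and 4.83 FPKM in the control vector libraries, had the same order. The log2 fold changes were -0.78 for SNORD3A (SE 0.22, limma-trend Benjamini-Hochberg adjusted p = 0.126), -1.01 for SNORD3B-1 (SE 0.23, adjusted p = 0.0764), -1.04 for SNORD3B-2 (SE 0.23, adjusted p = 0.0627) and -0.80 for SNORD3C (SE 0.21, adjusted p = 0.106). None passed, here or under any of the alternative settings, in which their log2 fold changes ran from -1.25 to -0.62 and their limma adjusted p from 0.0571 to 0.33.

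The 4 U3 genes are near-identical copies and are no independent evidence of each other. Their U3 RNAs of 217 bases were 99.1% to 100% identical. Counted from 1 at the 5′ end of the SNORD3A RNA, SNORD3B-1 and SNORD3B-2 carry A78C and SNORD3C carries G108A. All lie on chromosome 17, SNORD3B-1 and SNORD3B-2 between 19061912 and 19064136 and SNORD3A and SNORD3C between 19188016 and 19190245. The table lists them at 581 to 791 bases, well beyond the U3 RNA, so part of their fragments can lie outside it. Together they held 187.11, 188.95 and 288.47 fragments in labelled overexpression replicates 1, 2 and 3, against 549.44, 473.07 and 681.0 in control vector replicates 1, 2 and 3. Scaled to the library this was 6.80, 9.23 and 5.89 fragments per 1000000 in the labelled overexpression, against 12.2, 16.3 and 15.7 in the control vector libraries. A further U3 copy on chromosome 14, inside the rule, had a log2 fold change of -0.29 (SE 0.42) with overlapping groups.

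**Figure D3:**
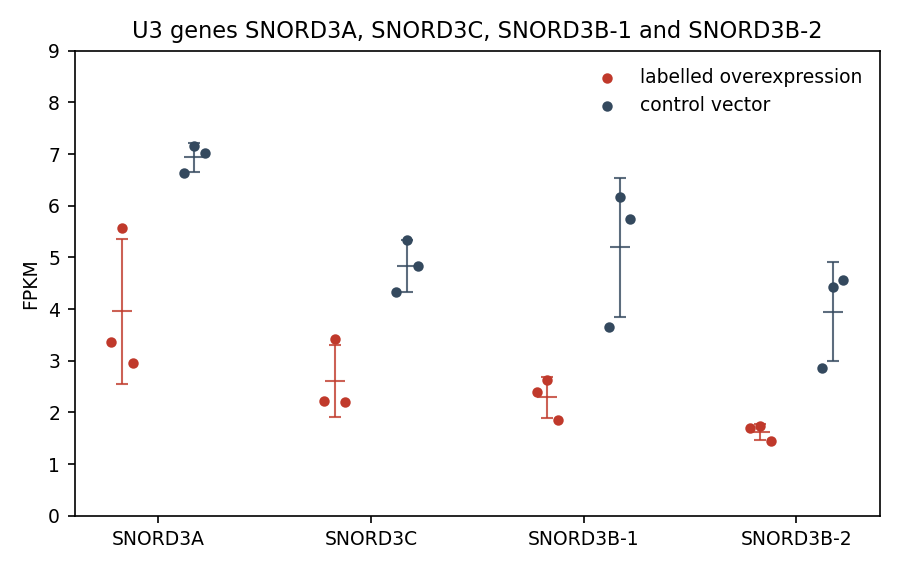
Level in FPKM of the U3 genes SNORD3A, SNORD3C, SNORD3B-1 and SNORD3B-2, with points for single libraries and bars for mean ± SD (n = 3 each), labelled overexpression in red left of control vector in dark blue. For each gene the highest labelled overexpression library lies below the lowest control vector library, although none passed the adjusted test.

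Beside the 4 U3 genes, 8 members had groups that did not overlap. In all, 12 of the 90 had groups apart (13.3%), against 24.1% of all tested genes. Of these, 10 were lower in every labelled overexpression library (11.1%, against 9.90% of all tested genes) and 2 were higher (2.22%, against 14.2%). The share that was lower is close to that of all tested genes. SNORD96A, SNORA63, SNORA57 and SNORA71E are named here for that order alone, chosen after their values were seen.

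Among box C/D members, SNORD73A and SNORD96A were apart. SNORD73A, in the ribosomal protein gene RPS3A, stood at 1.68, 3.76 and 1.41 FPKM in labelled overexpression replicates 1, 2 and 3, against 5.12, 6.62 and 13.5 FPKM in control vector replicates 1, 2 and 3. Its log2 fold change of -1.66 (SE 0.38, limma-trend Benjamini-Hochberg adjusted p = 0.0715) was the most negative of all members and rested on 12.5 fragments in the labelled overexpression and 65.5 in the control vector libraries, 38 of them in replicate 3. Without control vector replicate 3 it was -1.28. SNORD96A, in RACK1, stood at 3.68, 2.78 and 4.52 FPKM in the labelled overexpression, against 1.26, 2.40 and 2.33 FPKM in the control vector libraries. All 3 labelled overexpression libraries were thus above the control vector libraries, with a log2 fold change of 0.75 (SE 0.26, limma-trend Benjamini-Hochberg adjusted p = 0.188).

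Among box H/ACA members, 5 were lower in every labelled overexpression library and SNORA73B was higher. SNORA58B, in UBAP2L, stood at 6.81, 5.21 and 6.15 FPKM in the labelled overexpression, against 10.2, 9.49 and 8.13 FPKM in the control vector libraries. Its log2 fold change was -0.58 (SE 0.16, limma-trend Benjamini-Hochberg adjusted p = 0.128), the smallest error among the members that were apart. SNORA12, in CWF19L1, was at 0, 1.33 and 0.417 FPKM in the labelled overexpression, against 1.51, 2.93 and 2.04 FPKM in the control vector libraries, which is 7 fragments in all against 35.5. SNORA63 in EIF4A2, SNORA57 in CSKMT and SNORA71E in SNHG11 had log2 fold changes of -0.87, -0.85 and -0.63. SNORA73B, a U17 RNA within the spans of both RCC1 and SNHG3, stood at 1.51, 2.40 and 4.39 FPKM in the labelled overexpression, against 1.17, 0.844 and 0.263 FPKM in the control vector libraries. Its log2 fold change was 1.35 (SE 0.39, limma-trend Benjamini-Hochberg adjusted p = 0.128), and 43.83 of its 62.33 labelled overexpression fragments were in replicate 3. The other U17 gene, SNORA73A, averaged 1.05 ± 0.147 FPKM in labelled overexpression and 0.794 ± 0.185 FPKM in control vector libraries (SD, n = 3 each), with overlapping groups.

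The remaining large fold changes belonged to 9 genes with a mean of 2.445 to 11.25 fragments per library. SNORD42B had a log2 fold change of -1.64, with 2 fragments in the labelled overexpression and 15.83 in the control vector libraries. SNORA9B, SNORD36B and SNORD25 had -1.38, -1.29 and -1.14, with 7, 7 and 8.66 fragments in the labelled overexpression and 54.5, 21.16 and 30 in the control vector libraries. Control vector replicate 3 held 40 of the 54.5 fragments of SNORA9B and 14.83 of the 21.16 of SNORD36B, and without it their log2 fold changes were -0.60 and -0.63. With each library left out in turn SNORA9B ran from -2.55 to -0.60, SNORD36B from -2.31 to -0.63 and SNORD25 from -1.58 to -0.64, the last without labelled overexpression replicate 3. On the other side SNORD18C had 1.46, SNORD14E 1.41, SNORD4A 1.32, SNORA65 1.29 and SNORA5C 1.09. Leaving out single libraries moved SNORA65 between 0.64, without labelled overexpression replicate 2, and 2.07, without labelled overexpression replicate 3. SNORA5C moved between 0.25, without control vector replicate 1, and 1.73, without control vector replicate 3. SNORD18C, SNORD14E and SNORD4A were at 0 in 2 of the 3 control vector libraries and had 15, 12.5 and 11.67 fragments in all in the labelled overexpression. The groups overlapped for all 9 genes. SNORD4A also lies on the strand opposite to AC010761.8, whose listed exon covers it whole.

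**Figure D4:**
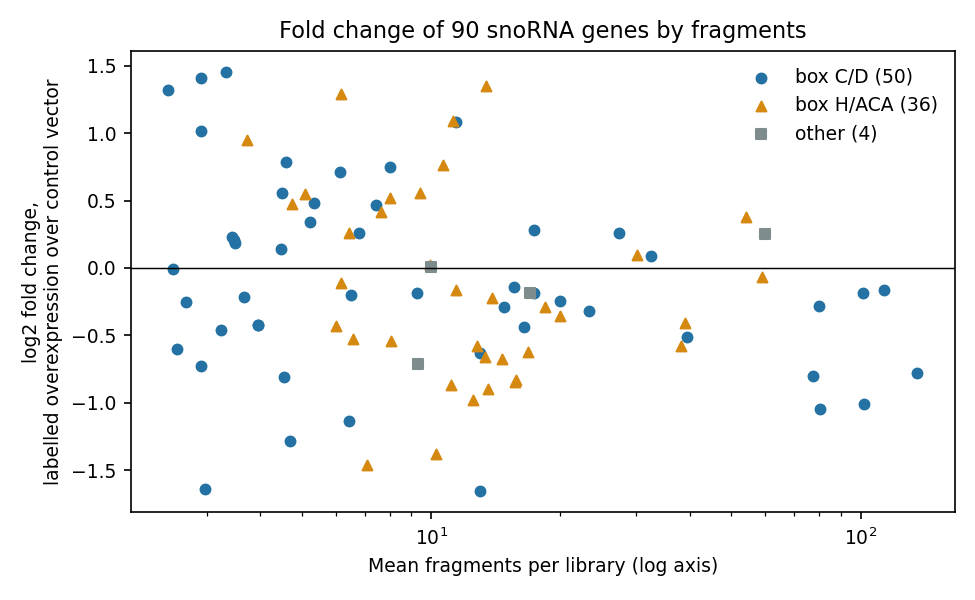
Log2 fold change, labelled overexpression over control vector, of the 90 snoRNA genes against their mean fragments per library (log axis), with box C/D as blue circles, box H/ACA as orange triangles and the others as grey squares. At a mean of 10 fragments or more 34 of 45 genes lie below 0, and under 10 fragments 20 of 45 do. The mean is of raw fragments, and the control vector libraries were deeper in sum, so this split is not independent of direction.

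Without control vector replicate 3, 2 of the 90 members (2.22%) passed limma-trend with Benjamini-Hochberg adjustment, against 124 of all tested genes (0.887%). These were SNORD36C (adjusted p = 0.035) and SNORD14E (adjusted p = 0.0375). Both were at 0 in the control vector libraries left, replicates 1 and 2, and among the 5 libraries left reached 1 FPKM only in the labelled overexpression, so they had to differ and no fold change is given for this fit. They rested on 11 and 12.5 fragments in the labelled overexpression. In control vector replicate 3 itself SNORD36C stood at 5.76 FPKM and SNORD14E at 1.36 FPKM. With all 6 libraries SNORD36C had a log2 fold change of 0.79 (SE 0.83). The U3 genes had log2 fold changes of -0.94 to -0.77 without control vector replicate 3.

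The classes were compared by their medians, with no test. The median log2 fold change was -0.19 over 50 box C/D members, with 30 below and 20 above 0 and a range of -1.66 to 1.46. It was -0.26 over 36 box H/ACA members, with 22 below and 14 above 0 and a range of -1.46 to 1.35. At a mean of at least 10 fragments the medians were -0.29 over 20 box C/D and -0.49 over 22 box H/ACA members. Raw fragments set this limit and the control vector libraries were deeper in sum, so it favours members higher in the control vector. Without labelled overexpression replicate 1 the box H/ACA median was 0.05, so its sign rests on that library. The classes also differed in depth, with a median of 6.47 fragments per library in box C/D and 11.3 in box H/ACA members.

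Several host genes that encode ribosomal proteins fell, while 0 of the snoRNA genes within hosts passed the same test. Of 55 tested hosts 7 passed limma-trend with Benjamini-Hochberg adjustment, against 1.14% of all tested genes. All 7 were lower in the labelled overexpression and were ribosomal protein genes, among them RPS3A, RPL7A, RPS13, RPL13A and RPL17-C18orf32. RPS3A had the largest change, at 297, 262 and 272 FPKM in the labelled overexpression and 489, 523 and 507 FPKM in the control vector libraries (log2 fold change -0.87, SE 0.09, limma-trend Benjamini-Hochberg adjusted p = 0.015). All 19 ribosomal protein hosts were below 0, against 43.2% of all tested genes. Their median log2 fold change was -0.46, or -0.35 after scaling to a common FPKM total. The 29 snoRNA genes within them had a median of -0.20, with 18 below and 11 above 0. Their median SE was 0.49, against 0.085 to 0.16 in these hosts. A fall as small as that of the hosts could hardly have passed in them, so the test cannot set the hosts apart from their snoRNA genes. All 19 stayed below 0 in every other setting, except that 18 did without labelled overexpression replicate 3. Without control vector replicate 3, 4 hosts passed, and without any other single library 0 passed. At a common FPKM total 4 passed, and with median-of-ratios scaling 11.

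**Figure D5:**
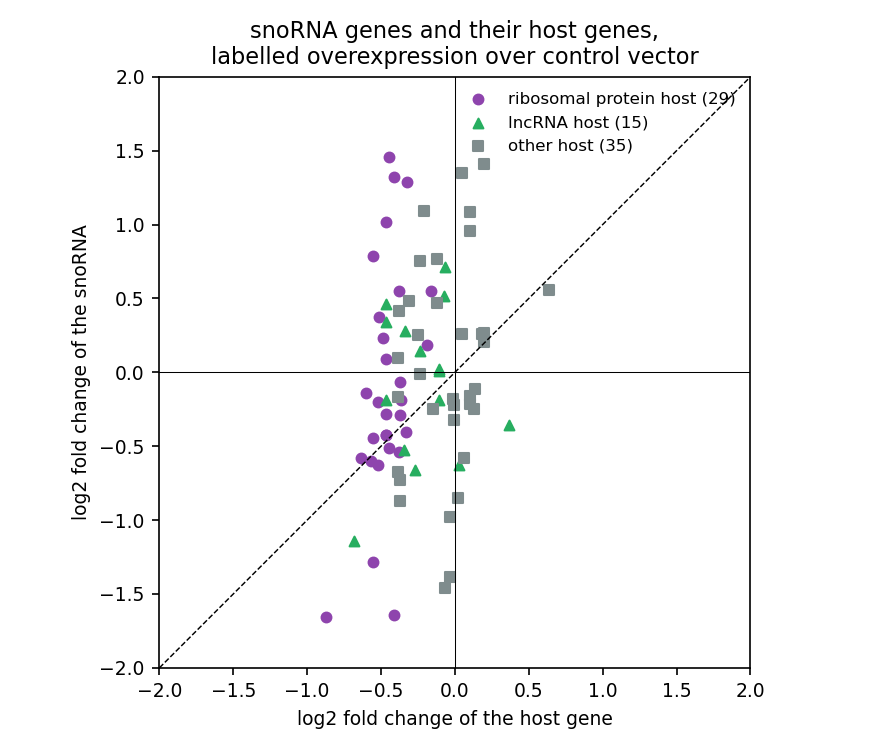
Log2 fold change of 79 snoRNA genes against that of the host gene, labelled overexpression over control vector, by kind of host (ribosomal protein in purple, lncRNA in green, other in grey), with a dashed line where both are equal. The 29 genes in ribosomal protein hosts all lie left of 0 on the host axis and spread from -1.66 to 1.46 on the snoRNA axis.

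The change of a snoRNA relative to its host was tested as the difference of the log2(FPKM + 0.5) values in each library, with limma-trend over 761 nested pairs of all kinds. None of the 79 pairs with a snoRNA member passed Benjamini-Hochberg adjustment (lowest adjusted p = 0.337), nor did any of the 761 (0.00%). At an unadjusted limma-trend p under 0.05 there were 5 of 79 (6.33%), against 10.5% of all pairs. The median difference was 0.12 over the 79 and 0.00 over all pairs, and 48 of 79 (60.8%) were above 0, against 50.9% of all pairs. For members in ribosomal protein genes the median was 0.18, with 21 of 29 above 0. Those members had a median level of 1.735 FPKM, where log2(FPKM + 0.5) understates changes, and their hosts were all below 0. The count thus cannot tell a smaller fall of these snoRNA genes from an equal one. SNORA58B differed from UBAP2L by -0.64 (95% interval -1.10 to -0.17) and SNORA73B from RCC1 by 1.303 (95% interval 0.18 to 2.43), neither of which passed (limma-trend Benjamini-Hochberg adjusted p = 0.337 and 0.388). SNORD73A differed from RPS3A by -0.79, with a 95% interval of -2.11 to 0.53. SNORD49B differed from SNHG29 by 0.28 (95% interval -0.08 to 0.64) and SNORD86 from NOP56 by -0.26 (95% interval -0.88 to 0.36).

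None of the proteins that form and mature snoRNA particles passed the test. Of 30 listed genes 28 were tested and 0 passed limma-trend with Benjamini-Hochberg adjustment in either direction, with 8 at an unadjusted p under 0.05 (28.6%, against 17.7% of all tested genes). Their median log2 fold change was 0.06, and 12 were below 0 (42.9%, against 43.2% of all tested genes). The log2 fold changes ranged from -0.46 for ZNHIT3 to 0.43 for NOLC1. FBL, the methyltransferase of box C/D particles, averaged 56.2 ± 2.22 FPKM in labelled overexpression and 60.3 ± 5.50 FPKM in control vector libraries (SD, n = 3 each). DKC1, the pseudouridine synthase of box H/ACA particles, averaged 41.1 ± 5.62 FPKM in labelled overexpression and 37.7 ± 1.84 FPKM in control vector libraries (SD, n = 3 each). Their log2 fold changes were -0.10 and 0.12 with overlapping groups. Of the other core proteins, NOP58 and GAR1 were higher in every labelled overexpression library, with log2 fold changes of 0.31 and 0.36. NOP10, SNU13 and NHP2 were lower in every one, with -0.41, -0.31 and -0.23. For comparison, 24.1% of all tested genes had groups apart. NOP56 had 0.10 with overlapping groups. None of these passed, the lowest adjusted p being 0.0904 for NOP10 (limma-trend with Benjamini-Hochberg adjustment).

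Markers of the line were in place for adrenergic neuroblastoma. DBH stood at 489 to 671 FPKM, ISL1 at 84.5 to 99.2 FPKM and GATA3 at 73.1 to 111 FPKM over all 6 libraries, while TH, another noradrenergic enzyme, did not exceed 0.300 FPKM. PTPRC, a blood cell marker, was listed at 0 in every library, and EPCAM and COL1A2 stayed at or below 0.736 FPKM.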

How the data were processed

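RNA of 6 SH-SY5Y libraries was measured, 3 labelled overexpression and 3 control vector. The authors deposited FPKM per gene and library with gene type, length and position, per the file headers. Tools and builds named in the submitters' processing notes are featureCounts 2.0.1, STAR 2.7.9, hg38 and GRCh38.p13, without options. In each library FPKM times length stepped by 0.01 of 1 fragment, within 0.001, which gave fragment numbers. These hold fractions, so the log-scale test for FPKM was used. Genes at 1 FPKM in at least 3 libraries were tested with limma 3.58.1 (limma-trend, R 4.3.3) on log2(FPKM + 0.5) without a block, with Benjamini-Hochberg adjustment over 13984 genes, and nested gene minus host over 761 pairs. The fits were checked on simulated data, in which only genes of a higher level than most members were changed. That check does not tell how well changes of the members could be found. Summaries used Python 3.11.15, pandas 2.3.3 and SciPy 1.17.1. Coordinates are those of the table (GRCh38), and all 90 members stood at the same position in GENCODE release 29, the source of the sequences. Members and lists were chosen with earlier results of these data known. Named were the 12 members of highest mean FPKM, the 6 largest fold changes in each direction, any that passed, the 3 nearest either side of the rule, hosts of at least 2 members and core particle proteins; U3 copies and others named beyond the rule were chosen after their values were seen. Some host genes and a marker are not reported here. The overlapping entries of SNORD38B, and SNORA50C with an unnamed gene, share fragments. Alternatives were the pseudocount, filter, scaling, trend, limma-voom on recovered fragments, a replicate block and leaving out each library.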

Additional observations from a re-analysis of the deposited data

How the results depend on the processing

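No snoRNA gene passed in any setting except 2 without control vector replicate 3, so without any 1 library the count ran from 0 to 2 (adjusted limma p), and 0 passed with the replicate block, with pseudocounts of 0.1 and 1, and with a mean of at least 10 fragments. The numbers shared by both groups correlated at -0.0235, 0.105 and 0.119 for replicates 1, 2 and 3 and do not pair the libraries. Of all tested genes 159 passed, against 229 with the replicate block, 233 at a common FPKM total, 178 with median-of-ratios scaling and 127 with limma-voom. It was 0 without the mean-variance trend (2304 genes at an unadjusted p under 0.05), 0 with no filter (3538 genes), and 0 to 124 without any 1 library; the cause was not tested. No pair with a host passed in any setting. The box C/D median log2 fold change ran from -0.28 to -0.12 without any 1 library. The box H/ACA median was -0.35 with a pseudocount of 0.1, -0.16 at a common total and -0.49 at 10 fragments or more, and ran from -0.31 to 0.0475 without any 1 library. The common total moved the median of all tested genes to 0.15, against 0.05, and that of the members to -0.09. Of 28 named members, 22 kept their direction without any 1 library. Many of the 28 were named for large fold changes or, like the U3 genes, after their values were seen. That choice favours a kept direction, so the count cannot tell how stable the changes of the members are. The members that turned, SNORA10, SNORD55, SNORD36A, SNORA18, SNORD118 and SNORD86, were all named for their mean level. SNORA10 turned to 0.0415 at a common total. Without any 1 library SNORA10 ran from -0.53 to 0.17, SNORD55 from -0.10 to 0.41, SNORD36A from -0.90 to 0.12, SNORA18 from -0.12 to 0.33, SNORD118 from -0.34 to 0.78 and SNORD86 from -0.36 to 0.00754. Depth limits many members: 45 of 90 had a mean under 10 fragments, where the median SE was 0.53, against 0.33 above.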

Other observations

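Small Cajal body RNAs, which guide modification of spliceosomal RNAs, have a type of their own in the table, so that only SCARNA12, typed as snoRNA there, was among the 90 genes. Of 49 genes of that type 23 were above 0 in some library and 3 reached 1 FPKM in at least 3 libraries. SCARNA22 stood at 2.47, 3.13 and 3.18 FPKM in labelled overexpression replicates 1, 2 and 3, against 2.31, 4.82 and 1.29 FPKM in control vector replicates 1, 2 and 3. SCARNA13 stood at 1.21, 1.21 and 0.718 FPKM in the labelled overexpression, against 0.538, 1.90 and 2.68 FPKM in the control vector libraries. SCARNA1 stood at 1.09, 0.294 and 3.57 FPKM in the labelled overexpression, against 0.668, 1.87 and 0.416 FPKM in the control vector libraries. The groups overlapped for all 3, with log2 fold changes of 0.19, -0.38 and 0.34 that did not pass (limma-trend Benjamini-Hochberg adjusted p of 0.657 to 0.823).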
